A study of Mus musculus with 17 samples.

Results

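The spots described here are 120 of the 7827 barcoded tissue spots in 3 Visium sections of mouse brain, chosen because they carried counts of Nexn, Kcnf1, Col27a1, Rab37 and Dpy19l1 on a thalamic glutamatergic background. A spot was first required to hold at least 1000 counts, at least 1 count of Tcf7l2, a transcription factor of the thalamus, at least 1 count of Slc17a6, the vesicular glutamate transporter VGLUT2 of thalamic relay neurons, and no count of C1ql2, a secreted synaptic protein of the complement C1q family that is used here to mark the anterodorsal nucleus. Of the 767 spots that met this, the 40 in each section with the highest mean log1p counts per 10000 of the 5 genes were taken and are called anteroventral-score spots. The other 647, 233 in posterior section 2, 159 in anterior section 5 and 255 in posterior section 6, served as the comparison and are called the other thalamic spots.

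All sections came from wild-type mice. The labels give the strain as B6 and name no treatment. Frozen brain was cut at 10 µm, stained for NeuN and DAPI on the capture slide and permeabilized for 24 minutes. There was 1 section at an anterior level and 2 at a posterior level of the anterior thalamic nuclei, so the anterior level has no replicate. The age and sex of the mice, and whether the 3 sections came from separate animals, are not stated in the labels used here. The p-values of the spots below rest on how the difference between groups within a section varied from section to section. That spread may be technical. A second data set held single cells picked by hand from microdissected anterior thalamus of wild-type B6 mice, and its well table names 3 animals.

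The anteroventral nucleus is 1 of the 3 anterior thalamic nuclei, beside the anterodorsal and the anteromedial nucleus. Its glutamatergic projection neurons receive input from the mammillary bodies and the hippocampal formation and send axons to the cingulate and retrosplenial cortex, a circuit studied for spatial memory. Like other thalamic relay cells they fire in tonic and burst modes and are inhibited by the reticular nucleus.

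A Visium spot is wider than a neuron, so a spot can hold several cells of different types or parts of them. The files used here hold no spot positions or region names, and the name anteroventral therefore rests on genes only. In such spots fewer cells of a type and less RNA per cell cannot be told apart. The 40 anteroventral-score spots held a median of 8918, 4501 and 6511 counts per spot in sections 2, 5 and 6, against 9448, 5063 and 6803 counts in the other thalamic spots. Summed over the 40 spots this gave 366373, 188953 and 266071 counts, out of 26032042, 13788407 and 18582120 counts in the whole sections. Mitochondrially encoded transcripts made up 10.6%, 10.7% and 8.67% of the counts of the anteroventral-score spots and 11.04%, 10.2% and 8.59% of those of the other thalamic spots. The sections shared 1500 to 1774 spot barcodes in pairs, 0 of them among the anteroventral-score spots, and spots were kept apart by section throughout.

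The 5 genes that made the score are described without a test, since they chose the spots. They encode an actin-binding protein (Nexn, nexilin), an electrically silent potassium channel subunit (Kcnf1, Kv5.1), a fibrillar collagen (Col27a1), a small GTPase of vesicle traffic (Rab37) and a relative of the C-mannosyltransferase of worms (Dpy19l1). Levels are given as counts per 1000000 (CPM) of the summed counts of a group of spots, in the order posterior section 2, anterior section 5, posterior section 6. Nexn stood at 156, 228 and 218 CPM in the anteroventral-score spots and at 15.3, 21.4 and 29.4 CPM in the other thalamic spots. Dpy19l1 was the most even of the 5 across sections, with 224, 222 and 226 CPM in the anteroventral-score spots and 72.05, 35.6 and 68.5 CPM in the other thalamic spots.

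Kcnf1 had 175, 175 and 147 CPM in the anteroventral-score spots, against 49.5, 17.8 and 33.7 CPM in the other thalamic spots. Col27a1 had 60.05, 138 and 67.7 CPM against 7.67, 7.12 and 13.05 CPM, with its highest level in the anterior section. Rab37 had 46.4, 84.7 and 139 CPM against 8.10, 8.31 and 17.9 CPM, with its highest level in posterior section 6. The gate genes were present in both groups by the rule: Slc17a6 averaged 559.6 ± 45.3 CPM in the anteroventral-score spots and 391 ± 60.4 CPM in the other thalamic spots, and Tcf7l2 averaged 608 ± 41.8 and 535 ± 118 CPM (SD, n = 3 sections each).

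**Figure D1:**
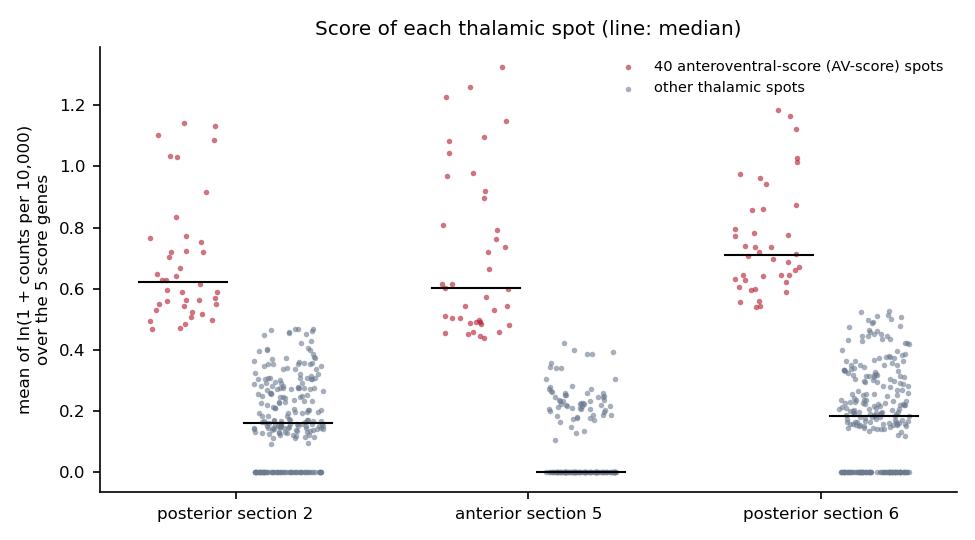
Mean log1p counts per 10000 of Nexn, Kcnf1, Col27a1, Rab37 and Dpy19l1 (y axis) in each of the 767 thalamic spots without C1ql2, by section (x axis), with the 40 anteroventral-score spots of a section left of its other thalamic spots. The score runs on without a gap where the 2 groups meet, at 0.469 against 0.468 in posterior section 2.

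The score was a continuum, as the plot of scores by section shows. Its median was 0.621, 0.601 and 0.711 in the anteroventral-score spots of sections 2, 5 and 6, against 0.162, 0 and 0.185 in the other thalamic spots. The last spot taken and the first left out scored 0.469 and 0.468 in posterior section 2, 0.439 and 0.421 in anterior section 5, and 0.540 and 0.526 in posterior section 6. A member held a median of 5, 3 and 5 counts of the 5 genes together, and 1, 37, 51, 23 and 8 of the 120 spots held 1, 2, 3, 4 and 5 of the genes. Dpy19l1 was counted in 95 of the 120 spots, Nexn in 89, Kcnf1 in 82, Rab37 in 51 and Col27a1 in 43. Nexn and Dpy19l1 were counted together in 70 spots, Nexn and Kcnf1 in 58 and Col27a1 and Rab37 in 19. Across the 767 spots the score had a rank correlation with the spot's total count of 0.05, -0.16 and -0.04 in sections 2, 5 and 6, so the anteroventral-score spots were not the deeper ones.

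Each of the 5 genes was also looked at in spots chosen by the other 4, a description in which the gene had no say in the choice, although all 5 had been picked together with results of these data known. Nexn then averaged 137 ± 31.3 CPM in the 40 spots chosen without it and 33.5 ± 9.65 CPM in the remaining spots, a ratio of 3.58 to 4.54 across the 3 sections. The ratio ran from 3.92 to 4.59 for Rab37, from 3.19 to 8.17 for Col27a1, from 1.88 to 4.52 for Kcnf1 and from 1.85 to 3.16 for Dpy19l1. All 5 genes were thus higher in the spots chosen without them in all 3 sections.

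Over the 767 spots, genes were ranked by how closely their level followed the score, as the mean over the 3 sections of Spearman's rank correlation across spots. The correlations were weak, are descriptive, and share the spots' depth and cell makeup. Among 6574 genes the highest were Rasgrp1, a guanine nucleotide exchange factor for Ras, at 0.351, Pcp4l1, a relative of a calmodulin regulator, at 0.341, Snap25, a core protein of synaptic vesicle fusion, at 0.325, and Cplx1, complexin 1, at 0.320. Ptpn4 and Slc24a2 followed at 0.310 and 0.306. The lowest was Calb2, the calcium-binding protein calretinin, at -0.339.

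The first comparison asked which other genes set the anteroventral-score spots apart from the other thalamic spots. Genes of an ephrin receptor, a GTPase exchange factor, a membrane carbonic anhydrase, a cerebellin, the Kv3.2 channel and the α4 and δ subunits of the GABA-A receptor were higher in the anteroventral-score spots. Calretinin, the vesicle GTPase Rab3b, and the α2 and α3 subunits of the GABA-A receptor were lower. Of 8376 genes tested, 303 were higher (3.62%) and 303 were lower (3.62%) by edgeR's quasi-likelihood test with Benjamini-Hochberg adjustment, with the section kept as a block. Without posterior section 2 these counts were 105 higher and 112 lower, and without posterior section 6 they were 189 higher and 167 lower. The tested genes had no part in the choice of spots, but they were counted in the same spots as the score.

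Epha8, an ephrin receptor tyrosine kinase, had 51.9, 58.2 and 60.1 CPM in the anteroventral-score spots and 9.81, 15.4 and 13.6 CPM in the other thalamic spots. Its log2 fold change of 2.19 ± 0.31 (SE) was the largest of the genes named as higher (adjusted p = 3.0e-07, edgeR). Plekhg1, an exchange factor for small GTPases, had 207, 169 and 274 CPM against 43.5, 87.8 and 86.4 CPM (log2 fold change 1.72 ± 0.17). Every section's anteroventral-score spots lay above every section's other thalamic spots for both genes. Car4, a membrane-bound carbonic anhydrase, had 57.3, 68.8 and 86.4 CPM in the anteroventral-score spots and 19.6, 22.5 and 27.2 CPM in the other thalamic spots (log2 fold change 1.61 ± 0.26, adjusted p = 6.5e-06). Cbln1, the synaptic organizer cerebellin 1, had 298, 280.5 and 331 CPM against 113, 121 and 94.6 CPM (log2 fold change 1.50 ± 0.14, adjusted p = 2.2e-13). The groups did not overlap for either gene, as the plot of CPM by section shows. The homeobox factor Shox2 had 336, 449.8 and 387 CPM in the anteroventral-score spots and 96.3, 185 and 151 CPM in the other thalamic spots (log2 fold change 1.50 ± 0.12). The remaining genes of the 12 with the largest rises were Osbpl3, a protein of the oxysterol-binding family, Sema3e, a secreted semaphorin, Chml, a Rab escort protein, Rgs6, a regulator of G protein signalling, Fstl1, a secreted follistatin-like protein, Inadl, a PDZ scaffold of cell junctions, and Tmem163, a zinc transporter. Their log2 fold changes ran from 1.44 for Tmem163 to 1.64 for Osbpl3, and no group overlapped for any of the 12. Sema3e did not pass without posterior section 2 (adjusted p = 0.17) nor Chml without posterior section 6 (adjusted p = 0.074), while the other 10 passed whichever section was left out.

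**Figure D2:**
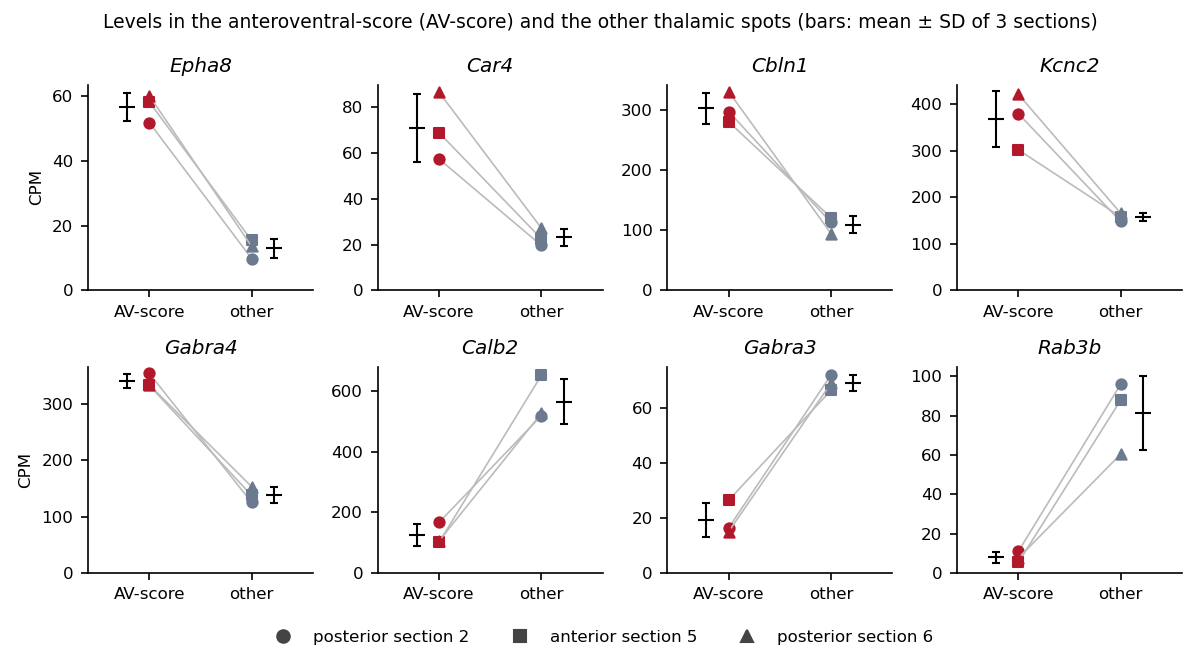
CPM of 8 genes (y axes) in the summed anteroventral-score spots and the summed other thalamic spots of each section, with bars for the mean ± SD of 3 sections. Epha8, Car4, Cbln1, Kcnc2 and Gabra4 lie higher, and Calb2, Gabra3 and Rab3b lower, in the anteroventral-score spots of every section, with no overlap.

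Calb2 was lower in every section, with 166, 101 and 105 CPM in the anteroventral-score spots and 518, 652 and 526 CPM in the other thalamic spots (log2 fold change -2.08 ± 0.14, adjusted p = 1.8e-18, edgeR). Rab3b, a GTPase of synaptic vesicles, had 10.9, 5.29 and 7.52 CPM against 95.9, 87.8 and 60.3 CPM (log2 fold change -3.25 ± 0.38). Ahi1, a protein of the primary cilium, had 68.2, 95.3 and 45.1 CPM against 275, 268 and 219.6 CPM (log2 fold change -1.92 ± 0.18). For all 3 genes the lowest section of the other thalamic spots lay above the highest of the anteroventral-score spots. Oxt, the hypothalamic hormone oxytocin, had the largest fall at -3.88, with 8.19, 37.05 and 33.8 CPM in the anteroventral-score spots and 57.98, 87.8 and 967 CPM in the other thalamic spots, and without posterior section 6 its fold change was -1.90. With 80 spots a section in place of 40, the fold change of Oxt was 0.65 (adjusted p = 0.049, edgeR), in the other direction. Ttr, transthyretin of the choroid plexus, had 2132, 899.7 and 481 CPM against 3643, 3343 and 5289 CPM (log2 fold change -1.90 ± 0.17, and -1.25 without posterior section 6), and its sign turned to 1.03 against comparison spots of like total count. The other genes of the 12 largest falls were 1500015O10Rik, Fxyd6, Rgs10, Psme1, Gabra2, Gabra3 and Lamp5, from -1.90 to -2.75, and the groups overlapped for none of the 12. With 80 spots a section 4 of the 12 falls passed and 11 kept their sign, while 9 of the 12 largest rises passed and all 12 kept theirs.

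The other thalamic spots were a mixed group, and the marker lists of neighbouring structures moved with the comparison. All 4 choroid plexus genes tested were lower, with the 6 markers summing to 2549, 1212 and 680.3 CPM in the anteroventral-score spots and 4349, 3947 and 6076 CPM in the other thalamic spots. Against the 197 other thalamic spots of like total count, 2 choroid plexus genes could be tested and 1 of them was higher. Of 6 hypothalamic genes tested 5 were lower, with the 8 markers summing to 245.7, 725.0 and 187.9 CPM against 633, 663 and 1614 CPM. The 6 habenular markers summed to 188, 111 and 128 CPM in the anteroventral-score spots, against 559.8, 711 and 752 CPM in the other thalamic spots. Most of these sums was Calb2, which is on that list, at 166, 101 and 105 CPM against 518, 652 and 526 CPM. Of 5 reticular or GABA genes tested 3 were lower, the GABA synthesis and transport genes Gad1, Gad2 and Slc32a1, and 1 had a positive fold change. The 8 markers of that list summed to 764, 487 and 451 CPM against 973, 806 and 599 CPM, with overlapping groups. Of the 6 thalamic glutamatergic genes tested 5 were higher, at a median log2 fold change of 0.88 against -0.00 over all genes. Against the 289 other thalamic spots with at least 3 counts of Tcf7l2 and 2 of Slc17a6, 137 genes were higher and 161 were lower. With these stricter comparison spots the thalamic glutamatergic list had 0 higher and 1 lower, the choroid plexus list had 0 called of 2 tested, and 11 of the 12 genes with the largest rises and 9 of 10 tested among those with the largest falls still passed. Car4 stood at 1.84, Epha8 at 1.83 and Calb2 at -2.80 there, while the sign of Ttr turned to 0.56.

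Oligodendrocyte genes also moved with the comparison: 5 of 8 were higher, Mobp, Cldn11, Mbp and Cnp among them, with a median of 0.37. The 8 markers summed to 10184, 8129 and 8592 CPM in the anteroventral-score spots, against 7654, 6166 and 6399 CPM in the other thalamic spots, with no overlap. Of the 120 anteroventral-score spots 30 lay at or below the median oligodendrocyte share of the thalamic spots of their section. In these 30 spots, set against the 355 other thalamic spots of the same kind in an alternative chosen after seeing the data, 52 genes were higher and 53 lower, and no oligodendrocyte gene of 7 tested passed. Of the 12 genes with the largest rises 8 could be tested there and 5 passed, and of the 12 with the largest falls 11 could be tested and 7 passed, with the sign of the full comparison in 8 of 8 and 11 of 11.

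The gene name given to the spots was set against nucleus markers that the score did not use. Car4 and Ccdc141, which mark anteroventral-like cells in these data, were both higher. Ccdc141 had 49.1, 68.8 and 33.8 CPM in the anteroventral-score spots and 17.9, 18.99 and 28.3 CPM in the other thalamic spots (log2 fold change 1.17 ± 0.31, adjusted p = 0.0079, edgeR). It did not pass without posterior section 2 (adjusted p = 0.30) or without the anterior section (adjusted p = 0.095). Npsr1, the neuropeptide S receptor, was too rare for the filter on low counts, with 21.8, 15.9 and 18.8 CPM against 3.41, 2.37 and 0.544 CPM. The anterodorsal marker C1ql2 was 0 by the rule, and neither Chrm1 nor Slc17a7 passed (adjusted p = 0.28 and 0.20, edgeR). Serpinb7 was at 0 in all anteroventral-score spots, but was near the floor in the other thalamic spots too, at 0.426, 1.19 and 0 CPM. It is therefore too rare to bear on the label. Slc17a7 depended on the spots set side by side: it was lower at -0.92 with 20 spots a section (adjusted p = 0.0036, edgeR) and higher at 0.96 against the stricter comparison spots (adjusted p = 0.0020). Of the 5 anteromedial or midline markers 4 were lower (Calb2, Necab1, Calb1 and Fbln1). Foxp2, the fifth, had 43.7, 5.29 and 15.03 CPM in the anteroventral-score spots and 42.2, 58.2 and 57.6 CPM in the other thalamic spots and did not pass (adjusted p = 0.061). Prkcd, a protein kinase C of many relay nuclei, was higher at 1.04, but with 95.5, 84.7 and 436 CPM against 58.8, 78.3 and 161 CPM its groups overlapped, and without posterior section 6 it stood at 0.49 and did not pass (adjusted p = 0.39). Against the stricter comparison spots it stood at 0.30 and did not pass (adjusted p = 0.46). Of the 5 markers of other relay nuclei 4 had a positive fold change, at a median of 0.49, with Ramp3 at 0.49 and Tnnt1 at 0.53, neither of which passed. The markers were thus mixed: those of the anteroventral and midline nuclei lay on the side of the label, of those of other relay nuclei none passed as lower, and no marker places the spots in the tissue. The marker lists were chosen with earlier results of these data known, so they give the label no independent support.

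Voltage-gated potassium channels showed more genes higher than lower. Of 26 genes tested 9 were higher (Kcnc2, Kcnq3, Kcnip4, Kcna2, Kcnd3, Kcnab2, Dpp6, Kcnd2 and Kcnh2) and 2 lower (Kcnip1 and Kcnc4), with a median log2 fold change of 0.35. Kcnc2, the fast Kv3.2 channel, had 379, 302 and 421 CPM in the anteroventral-score spots and 148, 158 and 166 CPM in the other thalamic spots (log2 fold change 1.26 ± 0.12, adjusted p = 2.0e-12, edgeR). Kcnq3, a subunit of the M current, had 153, 233 and 226 CPM against 78.02, 119 and 104 CPM (log2 fold change 1.03 ± 0.15). Both genes were higher with no overlap between groups. Kcnn2, an SK channel, was the only 1 of 15 other potassium and HCN channel genes to pass, at 0.97. The calcium channel list was divided, with Cacng5, Cacna1g and Cacnb4 higher and Cacnb3, Cacng3, Cacna2d3 and Cacna1e lower among 19 tested. Cacna1g encodes the low-threshold T-type channel of burst firing and stood at 0.62. Without posterior section 2 Kcnn2 and Cacng5 did not pass (adjusted p = 0.10 and 0.17), and without posterior section 6 neither Kcnn2 nor Cacnb3 did (adjusted p = 0.16 and 0.090).

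Of 18 sodium channel, neurofilament and other genes of fast-firing neurons, 8 were higher and 0 lower at a median of 0.37. They included Cplx1, Nefh, Scn1a, Atp1b1, Ina, Vamp1 and Spp1. Cplx1, which holds the vesicle fusion machinery ready, had 647, 725 and 1011 CPM in the anteroventral-score spots and 337, 446 and 519 CPM in the other thalamic spots (log2 fold change 0.89 ± 0.10, adjusted p = 1.2e-10, edgeR). Nefh, the heavy neurofilament chain, had 199, 265 and 263 CPM against 96.8, 152 and 138 CPM (log2 fold change 0.94 ± 0.14). Scn1a did not pass without posterior section 2 (adjusted p = 0.058). In the spots with fewer oligodendrocyte counts the list had 3 higher and 0 lower of 15 tested and the potassium channel list 4 higher and 0 lower of 22. With the stricter comparison spots the numbers were 7 higher and 1 lower of 15, and 5 higher and 2 lower of 22. The share of all genes called in either fit is not given here, so no list count from these fits shows that a list stands out.

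The GABA-A receptor genes were split by subunit. Gabra4, whose α4 subunit sits with δ in receptors outside the synapse in the thalamus, had 355, 333 and 334 CPM in the anteroventral-score spots and 125, 138 and 153 CPM in the other thalamic spots (log2 fold change 1.32 ± 0.13, adjusted p = 1.3e-12, edgeR). Gabrd, the δ subunit, had 150.1, 153 and 271 CPM against 83.1, 59.3 and 88.1 CPM (log2 fold change 1.27 ± 0.17). Both were higher in each section. Gabra3 had 16.4, 26.5 and 15.03 CPM in the anteroventral-score spots and 72.05, 66.5 and 69.04 CPM in the other thalamic spots (log2 fold change -1.92 ± 0.32, adjusted p = 1.3e-05), and Gabra2 and Gabrg1 were lower too, at -2.06 and -1.43. Of the 13 genes tested 5 were higher, with Gabrb1 and the GABA-B subunit gene Gabbr2 among them, and 3 were lower, at a median of 0.04.

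Among 18 genes of ionotropic glutamate receptors and their partners 3 were higher and 2 lower. Cnih3, an auxiliary protein of AMPA receptors, had 76.4, 74.1 and 78.9 CPM in the anteroventral-score spots and 27.7, 30.9 and 32.6 CPM in the other thalamic spots (log2 fold change 1.35 ± 0.25), and Grin2c, an NMDA receptor subunit, had 68.2, 84.7 and 90.2 CPM against 37.1, 21.4 and 33.7 CPM (log2 fold change 1.30 ± 0.25). The AMPA receptor gene Gria1 was lower, at -0.997. Of 12 cholinergic and monoamine receptor genes, the nicotinic subunit gene Chrna4 (1.203) and the adrenergic receptor gene Adra1b were higher, and the nicotinic modulator Lypd1 (-1.44) and the serotonin receptor gene Htr2c (-1.28) lower. Without posterior section 2, Gria1 (-0.66), Chrna4 and Lypd1 did not pass (adjusted p = 0.091, 0.082 and 0.16), nor did Htr2c without posterior section 6 (adjusted p = 0.055).

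Peptide and calcium-binding genes fell more often than they rose. Of 15 neuropeptide and receptor genes 2 were higher (Cck and Calca) and 6 lower (Scg2, Trh, Ramp1, Oprl1, Tac1 and Penk). Scg2, secretogranin II of dense-core vesicles, had 205, 164 and 128 CPM in the anteroventral-score spots and 366, 325 and 298 CPM in the other thalamic spots (log2 fold change -0.98 ± 0.13). Of 25 calcium-binding genes 9 were lower and 2 higher, with a median of -0.53. Necab1, a neuronal calcium-binding protein, had 68.2, 63.5 and 135 CPM against 176, 244 and 271 CPM (log2 fold change -1.32 ± 0.17, adjusted p = 2.6e-08, edgeR), and Hpcal4 and Calb1, calbindin, stood at -0.87 and -0.71. Among the 2 that were higher was Vsnl1, a visinin-like sensor. Without posterior section 2 Cck stood at 0.22 and did not pass (adjusted p = 0.48), nor did Trh and Ramp1 (adjusted p = 0.060 and 0.17), and Ramp1 did not without posterior section 6 either (adjusted p = 0.059).

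Among 34 thalamic transcription factor genes 6 were higher (Zic1, Rora, Lef1, Prox1, Hlf and Rorb) and 2 lower (Bcl11a and Meis2). Zic1, a zinc finger factor, had 540.4, 429 and 499.9 CPM in the anteroventral-score spots and 282, 323 and 286 CPM in the other thalamic spots (log2 fold change 0.77 ± 0.11), and Lef1, a Wnt effector, had 84.6, 68.8 and 71.4 CPM against 21.7, 28.5 and 39.7 CPM (log2 fold change 1.40 ± 0.25). Lef1 did not pass without posterior section 2 (adjusted p = 0.11). Against the stricter comparison spots 1 gene of 28 tested was higher and 3 were lower, with Zic1 at 0.21, Rora at 0.41 and Lef1 at 0.72, none of which passed (adjusted p = 0.40, 0.063 and 0.11, edgeR).

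Genes of wiring and synaptic contact moved in both directions. Of 30 axon guidance genes 4 were higher (Epha8, Sema7a, Sema3e and the netrin relative Ntng1) and 4 lower (Epha5, Robo2, Plxnc1 and Plxnd1). Epha5, another ephrin receptor, had 51.9, 68.8 and 22.6 CPM in the anteroventral-score spots and 101, 132 and 134 CPM in the other thalamic spots (log2 fold change -1.36 ± 0.23), the opposite direction to Epha8. Of 32 synaptic adhesion and organizer genes 6 were higher, among them Cbln1, Cntn6, Ptprd, Cntn4 and Lrrtm1, and 2 lower (Cbln4 and Lrrtm3). Cbln4, a second cerebellin, had 2.73, 0 and 3.76 CPM against 23.9, 22.5 and 27.7 CPM. Of 31 synaptic vesicle genes 8 were higher, among them Cplx1, Rims3 (0.69) and Snap25, and 5 were lower (Rab3b, Cplx2, Stx1a, Doc2b and Doc2a). Pcdh9 was higher and Pcdh10 and Pcdh11x were lower among 16 cadherins and protocadherins. Without posterior section 2 Cntn6 did not pass (adjusted p = 0.074), and Pcdh10 and Pcdh11x did not without posterior section 2 or without posterior section 6 (adjusted p = 0.056 to 0.36).

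Relatives of the score genes were looked at by family. Of 13 further muscle-type and actin genes Synpo2 was higher, with 158, 179.9 and 218 CPM in the anteroventral-score spots and 62.2, 65.3 and 109 CPM in the other thalamic spots (log2 fold change 1.24 ± 0.16), as was the calcium pump gene Atp2a2 (0.50). Of 13 other collagen and matrix genes Col25a1 and the link protein gene Hapln4 passed as higher, both with overlapping groups, and the fibulin gene Fbln1 was lower. Col25a1 had 240.2, 164 and 67.7 CPM in the anteroventral-score spots and 93.4, 91.4 and 81.00 CPM in the other thalamic spots, so it was higher in 2 of 3 sections only, and without posterior section 2 it stood at 0.34 (adjusted p = 0.67). Hapln4 and Fbln1 did not pass without posterior section 2 (adjusted p = 0.38 and 0.35) or without posterior section 6 (adjusted p = 0.37 and 0.13). Of 17 other Rab and traffic genes Rab3c was higher (0.38) and Rab3b and Rab15 were lower, of which Rab15 missed the threshold whichever section was left out and Rab3c without posterior section 2 (adjusted p = 0.30), and the sign of Rab3c turned to -0.16 against the stricter comparison spots.

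**Figure D3:**
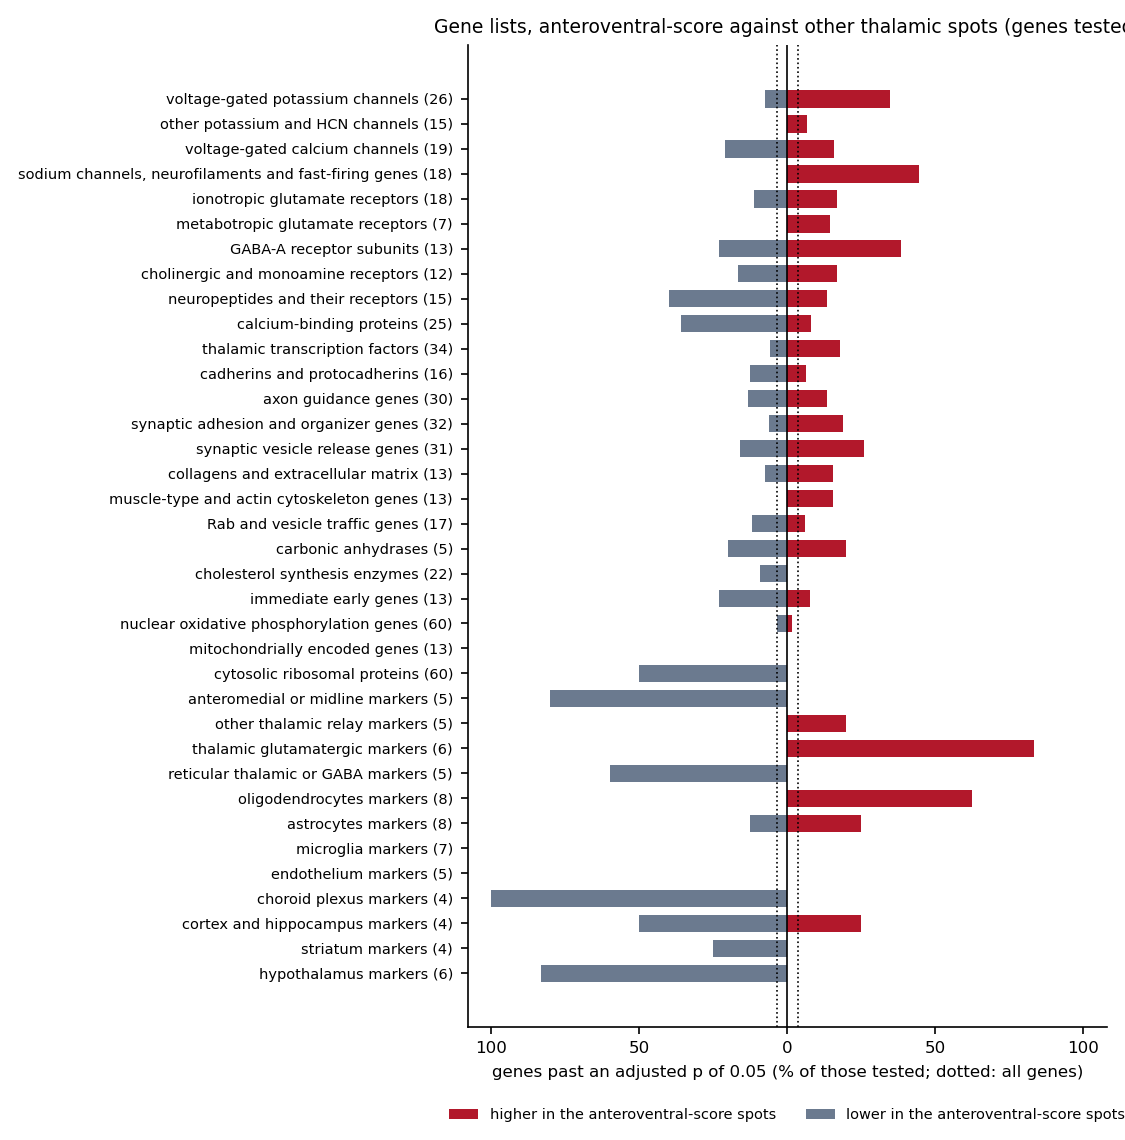
Share of the tested genes of each list (y axis) that were higher (bars to the right) or lower (bars to the left) in the anteroventral-score spots than in the other thalamic spots, in percent (x axis). Dotted lines mark the 3.62% over all 8376 genes in each direction. Fast-firing genes, with 8 of 18 higher, reach furthest right among the functional lists, and ribosomal protein genes, with 30 of 60 lower, furthest left.

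Of 60 cytosolic ribosomal protein genes 30 were lower and 0 higher, at a median of -0.32, and 1 of the 60 had a positive fold change. This count changed with the fit: it was 5 by DESeq2, 0 without the section block, 7 without posterior section 2, 9 without posterior section 6, 16 with 20 and 3 with 80 spots per section, 7 against the stricter comparison spots and 6 in the spots with fewer oligodendrocyte counts. None of the 13 mitochondrially encoded genes passed.

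The next comparisons set the anteroventral-score spots against 2 narrower groups of thalamic spots in 1 fit. The C1ql2 spots numbered 40, 25 and 40 in sections 2, 5 and 6 and met the same minimum counts with at least 1 count of C1ql2. The midline-score spots were the 40 per section with the highest score of Calb2 and Foxp2 outside the anteroventral-score spots. Their median was 9670.5, 5698 and 7617.5 counts per spot, also above that of the anteroventral-score spots. Both comparisons share the anteroventral-score spots, and the midline-score spots are also part of the other thalamic spots, so their values stand side by side.

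Relative to the C1ql2 spots, the anteroventral-score spots were higher in an AMPA receptor partner, a cerebellin, a troponin, a collagen and the factor Foxp1, and lower in the G protein subunit Gng13, the vesicular glutamate transporter Slc17a7 and several small signalling proteins. Of 6297 genes tested 98 were higher (1.56%) and 81 lower (1.29%) by edgeR's quasi-likelihood test, and without posterior section 6 the counts were 21 and 17. Cnih3 had 76.4, 74.1 and 78.9 CPM in the anteroventral-score spots and 13.8, 11.2 and 21.7 CPM in the C1ql2 spots (log2 fold change 2.22 ± 0.41, adjusted p = 0.0017). Cbln1 had 298, 280.5 and 331 CPM against 98.6, 50.4 and 56.9 CPM (log2 fold change 2.08 ± 0.21, adjusted p = 8.7e-07). Foxp1, a forkhead factor, had 101, 116 and 75.2 CPM against 34.4, 27.98 and 24.4 CPM (log2 fold change 1.69 ± 0.32), and the groups did not overlap for these 3 genes. Tnnt1, a troponin T, had 136, 74.1 and 56.4 CPM in the anteroventral-score spots and 48.2, 11.2 and 5.42 CPM in the C1ql2 spots (log2 fold change 1.91 ± 0.37). Against the other thalamic spots Foxp1 (0.09) and Tnnt1 (0.53) did not pass (adjusted p = 0.89 and 0.15, edgeR). Foxp1 averaged 97.5 CPM in the anteroventral-score spots, 96.2 CPM in the other thalamic spots and 123 CPM in the midline-score spots, so its low level was that of the C1ql2 spots. Col25a1, Osbpl3, Ccdc141 and Fam81a were higher by 1.89, 1.89, 1.99 and 1.94 on the log2 scale, with overlapping groups for Col25a1 only among the 16 genes named for this comparison. Without posterior section 6, Tnnt1, Osbpl3, Ccdc141 and Fam81a did not pass (adjusted p = 0.062, 0.24, 0.13 and 0.17). Osbpl3 did not pass without posterior section 2 either (adjusted p = 0.062), nor Ccdc141 without the anterior section (adjusted p = 0.23).

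Gng13, a G protein γ subunit, had 40.9, 31.8 and 71.4 CPM in the anteroventral-score spots and 181, 257 and 198 CPM in the C1ql2 spots (log2 fold change -2.06 ± 0.30, adjusted p = 1.6e-04, edgeR). The lowest section of the C1ql2 spots lay above the highest of the anteroventral-score spots. Slc17a7, the vesicular glutamate transporter VGLUT1, had 166, 79.4 and 143 CPM in the anteroventral-score spots and 259, 380.5 and 447 CPM in the C1ql2 spots (log2 fold change -1.36 ± 0.21, adjusted p = 3.1e-04). Rab3b, S100a10, Sncg, Gabra2, Ctxn2 and Psme1 were lower, from -1.82 to -2.56, of which Sncg, Gabra2, Ctxn2 and Psme1 did not pass without posterior section 2 (adjusted p = 0.057, 0.093, 0.16 and 0.057). Without posterior section 6 Gabra2, Ctxn2 and Psme1 did not pass either (adjusted p = 0.087, 0.079 and 0.071). The fast-firing list had 1 gene higher (Pvalb, parvalbumin) and 3 lower, Vamp1 among them, of 17 tested here, and the transcription factor list 4 higher (Hlf, Foxp1, Lef1 and Mef2c) and 0 lower of 26. Of 60 oxidative phosphorylation genes 7 were lower and 0 higher. Oligodendrocyte markers summed to 5627 to 7468 CPM in the C1ql2 spots, below every section of the anteroventral-score spots, and 4 of 8 passed as higher. The 8 reticular or GABA markers, a list that holds Pvalb, summed to 764, 487 and 451 CPM in the anteroventral-score spots and 229, 431 and 441 CPM in the C1ql2 spots, with no overlap, and Pvalb and Sst of the 5 tested were higher. The habenular markers summed to 188, 111 and 128 CPM in the anteroventral-score spots, against 484, 257 and 460 CPM in the C1ql2 spots. Most of these sums was Calb2, which is on that list, at 166, 101 and 105 CPM against 461, 218 and 233 CPM. The part of oligodendrocytes, GABA cells and habenular cells in the differences from the C1ql2 spots was not tested.

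**Figure D4:**
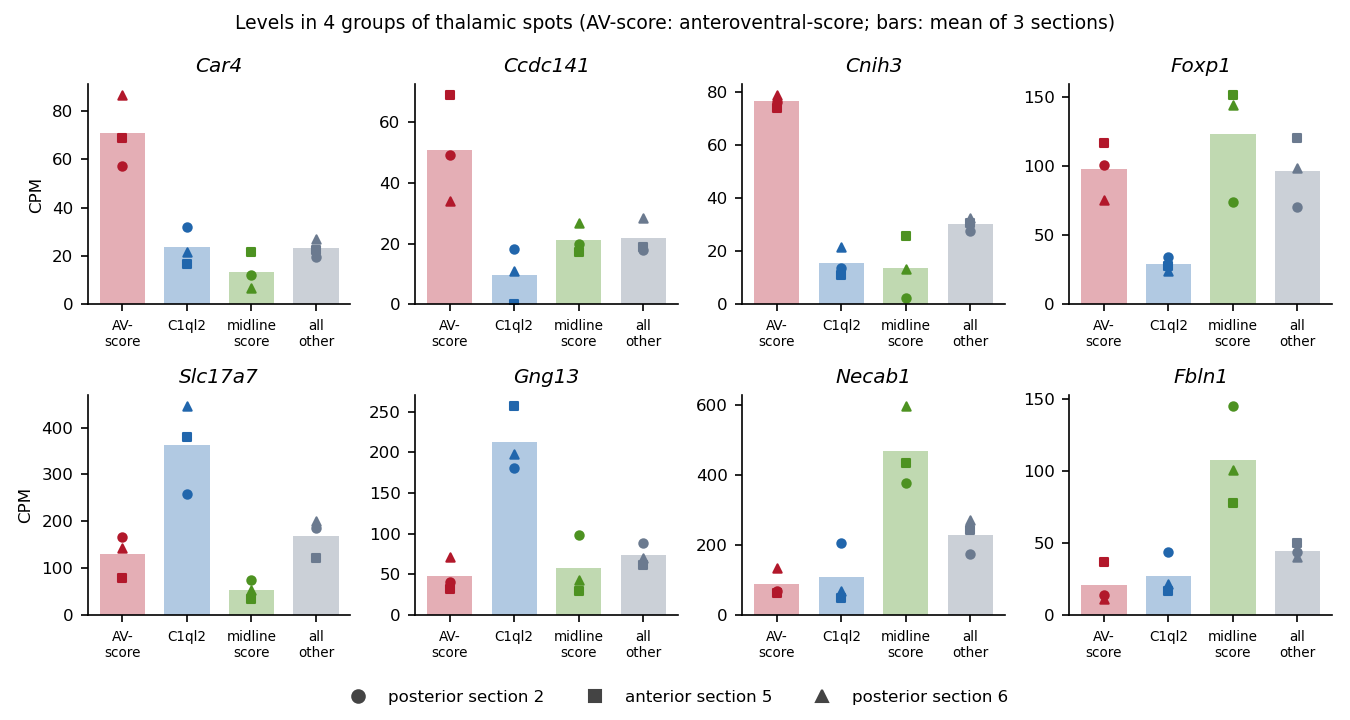
CPM (y axes) of Car4, Ccdc141, Cnih3, Foxp1, Slc17a7, Gng13, Necab1 and Fbln1 in 4 groups of thalamic spots, with 1 point per section and bars for the mean of 3 sections. Car4, Ccdc141 and Cnih3 are highest in the anteroventral-score spots, Slc17a7 and Gng13 in the C1ql2 spots, and Necab1 and Fbln1 in the midline-score spots. Foxp1 is lowest in the C1ql2 spots.

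Relative to the midline-score spots, the anteroventral-score spots were higher in Coch, Cnih3, Epha8, Car4 and many genes of fast firing, and lower in Rab3b, Doc2b, Fbln1 and Necab1. Of 6297 genes 293 were higher (4.65%) and 254 lower (4.03%). Coch, a secreted protein named for the cochlea, had 84.6, 42.3 and 52.6 CPM in the anteroventral-score spots and 4.93, 17.3 and 0 CPM in the midline-score spots (log2 fold change 3.23 ± 0.55, adjusted p = 1.7e-04, edgeR). Car4 had 57.3, 68.8 and 86.4 CPM against 12.3, 21.6 and 6.70 CPM (log2 fold change 2.42 ± 0.43), and Epha8 had 51.9, 58.2 and 60.1 CPM against 7.39, 8.64 and 13.4 CPM (log2 fold change 2.51 ± 0.46). No group overlapped for these 3 genes. Doc2b, a calcium sensor of vesicle release, had 10.9, 5.29 and 0 CPM in the anteroventral-score spots and 54.2, 47.5 and 53.6 CPM in the midline-score spots (log2 fold change -3.04 ± 0.56). Fbln1 had 13.6, 37.05 and 11.3 CPM against 145, 77.7 and 100.4 CPM (log2 fold change -2.58 ± 0.38), and Necab1 and Calb1 stood at -2.40 and -0.91. Calb2, which chose the midline-score spots, averaged 124 ± 36.8 CPM in the anteroventral-score spots and 1665 ± 153 CPM in the midline-score spots (SD, n = 3 sections each), as a description.

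Slc17a7 lay on either side of the anteroventral-score spots in these comparisons. It was lower than in the C1ql2 spots, and at 166, 79.4 and 143 CPM in the anteroventral-score spots against 73.9, 34.6 and 53.6 CPM in the midline-score spots it was higher than there (log2 fold change 1.26 ± 0.29, adjusted p = 0.0047, edgeR). The fast-firing list had 12 of 17 genes higher and 1 lower (Scn3b), and the potassium channel list 9 of 22 higher and 1 lower (Kcnip1). The synaptic vesicle list went both ways, with 6 of 27 genes higher (Cplx1, Snap25, Vamp1, Slc17a7, Syt1 and Sv2b), 5 lower (Rab3b, Syt4, Doc2b, Syt17 and Stx1a) and a median of 0.03. The reticular or GABA markers moved with the fast-firing list, which shares Pvalb with them: they summed to 764, 487 and 451 CPM in the anteroventral-score spots and 296, 393 and 117 CPM in the midline-score spots, with no overlap, and all 5 tested had a positive fold change, at a median of 1.08, with Pvalb and Sst higher. The midline-score spots summed to 3421 to 4197 CPM of oligodendrocyte markers, under the sums of the anteroventral-score spots in every section, and 7 of 8 of these genes passed as higher. The habenular markers summed to 1512, 1710 and 2307 CPM in the midline-score spots, against 188, 111 and 128 CPM in the anteroventral-score spots. Calb2, which is on that list and chose the midline-score spots, made up most of the former at 1503, 1685 and 1808 CPM. The habenular sums were thus largely set by the rule and do not show habenular cells. The part of oligodendrocytes and GABA cells in the differences from the midline-score spots was not tested.

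The same 5-gene score was then applied to single cells, whose libraries had no part in choosing the spots. Of 904 cells with at least 1000 genes and a named animal, 743 had a count of Slc17a6 and none of C1ql2. In each animal the 25% with the highest score were taken, which gave 21, 70 and 95 high-score cells in animals 1, 2 and 3, against 62, 210 and 285 other cells. Counts were summed per animal and group. The choice of cells rests on the same genes as that of the spots, and those genes are not tested.

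In the cells the direction of the spot differences was shared for most genes, while few single genes passed. Of 12035 genes tested 0 were higher (0.0%) and 9 lower (0.0748%) in the high-score cells by edgeR's quasi-likelihood test with Benjamini-Hochberg adjustment. At an unadjusted p under 0.05 the counts were 313 higher and 397 lower, and DESeq2 gave 49 higher and 92 lower. Without animal 1 the edgeR counts were 168 higher and 296 lower. Calb2 had 0, 0 and 0.657 CPM in the high-score cells of animals 1, 2 and 3, against 179.6, 97.1 and 157.5 CPM in the other cells (adjusted p = 0.014). Only 4 Calb2 counts were found in all 186 high-score cells. Stmn1, the microtubule regulator stathmin, had 327, 261 and 232 CPM in the high-score cells and 1163, 756 and 1104 CPM in the other cells (log2 fold change -1.85 ± 0.15, adjusted p = 0.027). Calb2, Stmn1, Olfm1, Zcchc12 and Syn2 were lower in both assays. Scn3b, Tnnt1, Ramp3 and Foxp1 were lower in the cells and did not pass in the spots. Tnnt1, Ramp3 and Foxp1, all on the list of other relay markers, had log2 fold changes of -1.89, -3.57 and -1.69 in the cells, and of 0.53, 0.49 and 0.09, in the other direction, in the spots. Without animal 3 Calb2, Stmn1 and Ramp3 were the 3 of the 9 that still passed. Ramp3, a partner of calcitonin-family receptors, had 1.66, 30.2 and 18.1 CPM in the high-score cells and 74.6, 279.7 and 179.2 CPM in the other cells.

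Of the 294 genes that were higher in the spots and tested in both assays, 225 (76.5%) had a positive fold change in the cells, against 46.8% of all 7846 genes. Of the 244 that were lower in the spots, 206 (84.4%) had a negative one, against 53.2% of all genes. In all 3 animals 135 of the 294 were higher and 138 of the 244 were lower. The 5 genes called lower in both assays were 2.05% of the 244 spot genes and 55.6% of the 9 cell genes. Over the 7846 genes the fold changes had a Pearson correlation of 0.31 and a Spearman correlation of 0.20, a description across genes, which are not independent. Oligodendrocyte genes, higher in the spots, had a median of -0.31 in the high-score cells, and 1 of the 8 was positive. Fast-firing genes had a median of 0.38 over 18 genes, against -0.07 over all genes tested, and none was higher by the test.

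**Figure D5:**
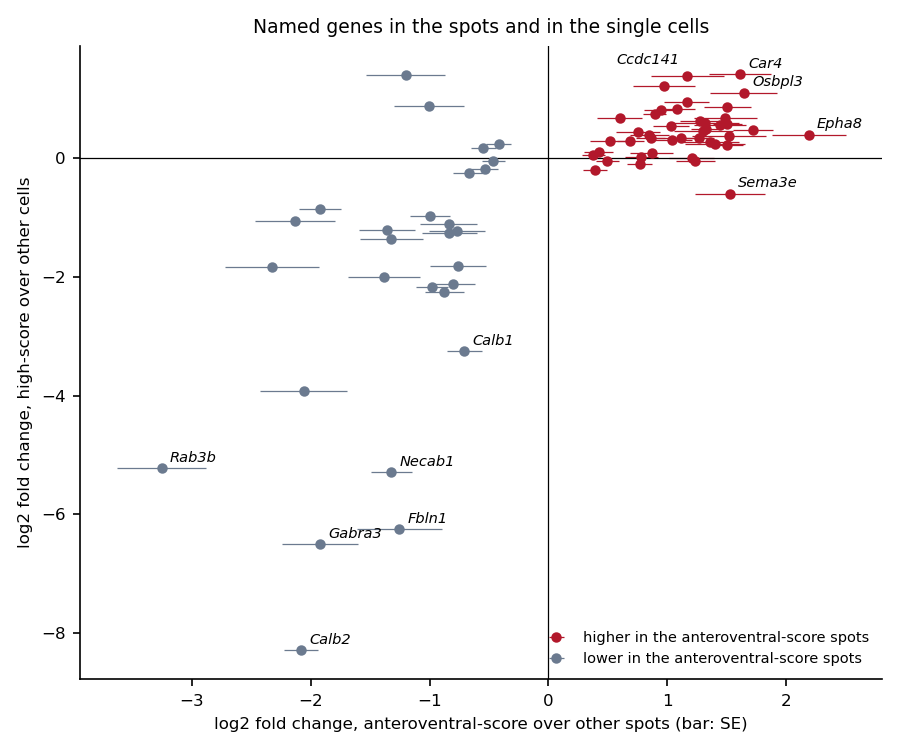
Log2 fold change of named genes between anteroventral-score and other thalamic spots (x axis, bar: SE) against that between high-score and other single cells (y axis). Genes with no count in the high-score cells are left out. Car4 lies at 1.61 in the spots and 1.42 in the cells, and Scg2 at -0.98 and -2.18, while Sema3e lies at 1.53 and -0.60.

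Car4 had 119, 186 and 157 CPM in the high-score cells of animals 1, 2 and 3 and 38.9, 99.5 and 51.2 CPM in the other cells, with no overlap, and did not pass (adjusted p = 0.20, edgeR). Osbpl3 had 394, 213 and 230.4 CPM against 97.9, 169 and 127 CPM (adjusted p = 0.55). Rab3b had 0.829, 0 and 0.164 CPM in the high-score cells and 23.9, 4.30 and 8.73 CPM in the other cells, and Gabra3 had 0, 0 and 0.328 CPM against 32.9, 16.3 and 19.2 CPM. Necab1 had 4.15, 1.44 and 2.30 CPM in the high-score cells and 52.4, 118 and 149 CPM in the other cells. These genes lay in the cells on the same side as in the spots, and none of them passed there. Sema3e, higher in the spots, had 9.12, 56.2 and 28.7 CPM in the high-score cells and 32.1, 37.8 and 48.9 CPM in the other cells. The score genes themselves, by choice, ran from 868 to 1246 CPM for Nexn in the high-score cells and from 336 to 406 CPM in the other cells. When each gene was left out of the choice, it was still higher in the chosen cells of all 3 animals, by 1.19 to 1.71 times for Nexn, 1.35 to 1.40 times for Kcnf1, 1.24 to 2.66 times for Col27a1, 1.58 to 2.22 times for Rab37 and 1.82 to 2.88 times for Dpy19l1.

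With 1 anterior section, the anterior and posterior levels can be described but not tested. Of 2744 genes with at least 60 counts in the anteroventral-score spots, 13 (0.474%) were at least 2-fold higher and 41 (1.49%) at least 2-fold lower in the anterior section than in both posterior sections. The other thalamic spots showed a 2-fold difference in the same direction for 1 of the 13 and 3 of the 41. Ptgds, the prostaglandin D synthase of the meninges and choroid plexus, reached 7616 CPM (exact Poisson 95% interval 7227 to 8020) in the anterior section, against 914 and 474 CPM in posterior sections 2 and 6. It was the 1 of the 13 that was also higher in the anterior other thalamic spots, at 1877 CPM against 776 and 774 CPM. The 6 meningeal markers summed to 487 CPM in the anterior section, against 57.3 and 11.3 CPM. In the other thalamic spots their sum was also highest in the anterior section, at 246 CPM against 99.3 and 120 CPM. Of the score genes Col27a1 was the one past 2-fold, with 138 CPM (89.9 to 202), against 60.05 and 67.7 CPM. Nalcn, a sodium leak channel, was among the lower genes, with 26.5 CPM (8.59 to 61.8), against 92.8 and 113 CPM. These intervals cover counting error only, and section and anteroposterior level cannot be told apart.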

How the data were processed

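The deposited spot tables hold raw counts per gene and spot for 28692 genes, made by the authors with Space Ranger and Seurat according to the submitters' processing notes, which name the builds NCBIM37 and mm10 without a role. For the single cells the authors deposited 1 table of raw counts with a column for each of 1344 wells on 14 plates. Its well table, whose other columns the authors gave as text, names an animal for 1216 wells. The plates could not be matched to the titles of the 14 single-cell samples, so the animal was taken as the replicate. Spike-ins (92 rows) were left out.

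Spots carried no doublet step, and counts were summed per section and group of spots. Cells with at least 1000 genes counted were summed per animal and group. Sums were tested with edgeR 4.0.16 in R 4.3.3 (quasi-likelihood test, TMM scaling, filter on low counts) with the section or the animal as a block, and p-values were adjusted over all genes tested apart from the 8 genes of the rule, with a threshold of 0.05. The pairing comes from the design, since both sums of a pair come from the same section or animal. Deviations of same-section sums had a median correlation of 0.170, against -0.0956 for other pairs. They were taken from the mean of each group over the sections, which ties the value of other pairs to the opposite sign. The negative value is therefore no separate evidence for the block. DESeq2 1.42.0 was an alternative, as were no filter, no block, leaving out each section or animal, 20 or 80 spots per section, at least 3000 counts per spot, 2 narrower sets of comparison spots and the top 10% of cells.

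Genes were named if among the 12 with the largest fold change in each direction with at least 50 CPM on the higher side, a log2 fold change of 0.5 or more in size and 1 direction in 3 of 3 sections (8 in each direction against the C1ql2 and midline-score spots), or among the 3 of a list with the smallest adjusted p, or a fixed nucleus marker. Other list members are named to complete counts and were chosen after their values were seen, and some genes that met these rules are not reported here. The members, gene lists and tests were chosen with earlier results of these data known. On simulated counts the spot fit recovered 66% of 2-fold and 100% of 4-fold changes with 7 false calls among 8125 genes. The changed genes were drawn only from those above the median total count, and all genes were given the same fixed dispersion. The recovery therefore does not cover rarer genes or the spread between the real sections. Sums of 188953 to 366373 counts in the anteroventral-score spots limit the precision for genes under about 50 CPM.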

Additional observations from a re-analysis of the deposited data

Results flagged for a closer look

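Ramp3, a partner of calcitonin-family receptors, had a log2 ratio of another sign in the anterior section than in the posterior sections. In the anterior section its log2 ratio of anteroventral-score to other thalamic spots was -0.116, while it was 0.687 and 0.525 in posterior sections 2 and 6. This difference was not tested, since there is 1 anterior section, and the anterior value rests on the 12 counts behind 63.5 CPM in the anteroventral-score spots.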

How the results depend on the processing

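Of the genes named as called, 17 of 82 kept their call against the other thalamic spots under all alternatives, 8 of 16 against the C1ql2 spots, 15 of 16 against the midline-score spots and 2 of 9 in the cells. Most other fits of the spots gave fewer calls, no filter on low counts gave more falls, and most other fits of the cells gave more calls; the cause was not tested. Against the other thalamic spots, DESeq2 gave 84 genes higher and 65 lower, no filter 239 and 363, the fit without the replicate block 96 and 102, 80 spots per section 87 and 50, comparison spots of like total count 151 and 168, the stricter comparison spots 137 and 161, and spots with fewer oligodendrocyte counts 52 and 53. Leaving out a section gave 105 to 290 higher and 112 to 309 lower. Against the C1ql2 spots, DESeq2 gave 28 higher and 24 lower, no filter 134 lower, no block 44 and 27, and leaving out a section 21 to 80 and 17 to 70. Against the midline-score spots, DESeq2 gave 101 and 92, no block 163 lower, and leaving out a section 129 to 235 and 113 to 237. In the cells, DESeq2 gave 49 and 92, no filter 49 and 126, no block 16 lower, the top 10% of cells 3 lower, and leaving out an animal 0 to 168 higher (168, 1 and 0 without animals 1, 2 and 3) and 5 to 296 lower. The sign turned for Oxt with 80 spots (0.65), for Ttr with comparison spots of like total count (1.03) and stricter ones (0.56), and, with the stricter ones, for Rab3c (-0.16) and Slc17a7 (0.96). The median log2 fold change of all genes was -0.0049 with TMM scaling, -0.0076 with DESeq2 size factors and -0.013 with plain CPM. Depth limits the rarer genes, Npsr1 among them, and the anterior section was the shallowest.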

Other observations

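Among lists not described above, 2 of 22 cholesterol synthesis genes, Sqle among them, were lower in the anteroventral-score spots than in the other thalamic spots and 0 higher, with a median log2 fold change of -0.17. In the high-score cells the same 22 genes had a median of -0.97 against -0.07 over all genes tested, 1 of the 22 was positive, and none passed by edgeR's test. Of 13 immediate early genes in the spots, Dusp1 was higher and Junb, Nr4a1 and Egr1 were lower. Sqle, Dusp1, Junb and Nr4a1 did not pass without posterior section 2 or without posterior section 6. Nr4a1 had 30.02, 26.5 and 26.3 CPM in the anteroventral-score spots and 55.00, 52.2 and 61.4 CPM in the other thalamic spots. In the high-score cells 11 of 15 immediate early genes were positive, with a median of 0.27, and none passed. Spots were frozen in the section and cells were picked from live slices, and the part of that in these values was not tested.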
